A study of Mus musculus with 12 samples.

Results

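Protocadherins are cell-surface proteins of the cadherin superfamily, and all 70 genes of the count table whose symbol starts with Pcdh were taken here, out of 24525 genes. Of these, 58 belong to the clustered protocadherins, with 14 in the alpha cluster, 22 in the beta cluster and 22 in the gamma cluster, and the remaining 12 are non-clustered. In the clusters, each isoform starts from its own promoter and variable first exon, and in single neurons a few of the promoters are chosen by chance while the rest stay silent. Alpha and gamma variable exons are spliced to constant exons shared by their whole cluster, whereas beta genes consist of a single exon. The last members of the alpha and gamma clusters, called C-types (Pcdhac1, Pcdhac2, Pcdhgc3, Pcdhgc4 and Pcdhgc5), are not chosen by chance in this way. Clustered isoforms bind only matching isoforms on other membranes, which lets the neurites of 1 neuron recognise and avoid each other. Non-clustered protocadherins are mostly delta-1 (Pcdh1, Pcdh7, Pcdh9 and Pcdh11x) or delta-2 members (Pcdh8, Pcdh10, Pcdh17, Pcdh18 and Pcdh19), single genes with patterned expression in the developing brain. Pcdh12, Pcdh15 and Pcdh20 stand outside both groups.

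The study asked what loss of Ythdf2, a reader protein that recruits the mRNA decay machinery to m6A-modified transcripts, does to neural stem/progenitor cells (NSPCs). NSPCs of C57BL/6 embryos at E14.5 were grown as neurospheres, floating cultures in medium with EGF and bFGF, and used at passage 1. Wild type cells carried the intact gene, and Ythdf2-/- cells were homozygous for a germline deletion, made with ubiquitously expressed Cre, of the stretch between LoxP sites upstream of the 5′ UTR and in intron 1. The values come from 3 wild type and 3 Ythdf2-/- input libraries, that is, fragmented mRNA set aside before m6A immunoprecipitation, and the immunoprecipitated libraries were not analysed here. Because the deletion is germline, every cell of a culture carries it, and the neurospheres can hold progenitors beside cells that have begun to differentiate.

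The libraries held 11029827 to 13185778 counted reads. Ythdf2 had 71.8, 73.3 and 91.3 CPM in the wild type libraries and 11.7, 14.7 and 11.1 CPM in the Ythdf2-/- libraries, where CPM is a gene's read count scaled to the library total with TMM factors and values are given in the order of replicates 1, 2 and 3. The labels and the targeted gene matched in all 6 libraries, although the deletion left 15.8% of the wild type reads. Wild type replicate 3 stood apart from the other 5 libraries: its mean rank correlation with them was 0.900 against 0.962 to 0.970 for the others, and it lay at 91 on a first principal component that held 74.2% of the variance, with the others between -30.6 and -6.04. In that library the immature neuron gene Dcx had 314 CPM against 8.35 to 13.1 in the other 5, the myelin gene Mbp 572 CPM against 1.21 to 8.85, and the progenitor gene Nes 264 CPM against 724 to 1211, whereas Sox2, also a progenitor gene, had 550.1 CPM against 315.5 to 426. The fold changes and counts from edgeR are therefore given below with and without this library. Summed neuronal markers ran from 1320 to 2163 CPM in wild type and from 1303 to 1530 CPM in Ythdf2-/- libraries. Of the 12 neuronal markers, 7 were highest in wild type replicate 3, as were 33.8% of all genes tested. Oligodendrocyte lineage markers ran from 1802 to 5060 and from 2001 to 2232 CPM (8 of 12 highest in that library), astroglial markers from 5670 to 11410 and from 3027 to 8142 CPM (5 of 9), and progenitor markers from 3530 to 6553 and from 4907 to 6591 CPM. Among the astroglial markers Gfap, an intermediate filament gene, had 436, 624.5 and 3041 CPM in wild type and 127, 87.7 and 5.55 CPM in Ythdf2-/- libraries, without overlap. The progenitor sum was lowest in wild type replicate 3, although 7 of its 10 markers were highest there. Microglial markers summed to 3.48 to 4.84 CPM over all libraries, with Aif1, Csf1r and Ptprc at 3 reads or fewer in each, and endothelial markers to 1.28 to 4.02 CPM, with Cdh5 and Cldn5 at 3 reads or fewer. Mesenchymal markers summed to 32.6 CPM in wild type replicate 3 and 1.33 to 5.37 CPM elsewhere, with Col1a2, Col3a1 and Lum at 3 reads or fewer in every library. In these bulk samples, fewer cells of a type and less RNA per cell cannot be told apart, and the part of any cell type in the results below was not tested.

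The clusters lie in a row on chromosome 18 of GRCm38, the assembly also called mm10. The alpha cluster spans 36930285 to 37188897, the beta cluster 37264998 to 37521419 and the gamma cluster 37661775 to 37841873. Since constant exons belong to every gene of a cluster, a read can be assigned to 1 alpha or gamma member mainly through its variable exon. The own exon sequence of gamma members ran from 2499 to 2961 bases and that of beta members from 2340 to 5271 bases. Pcdha4 and Pcdha7 had 0 own exon bases, because annotated genes that run from the alpha into the gamma cluster (Gm37013, Gm38666 and Gm38667) cover their variable exons. Both had 0 reads in all 6 libraries, and the overlapping genes had at most 1 read in a library. For these 2 alpha members a transcript that is absent and reads that were not assigned cannot be told apart. Pcdha6 also had 0 reads in every library, over 1240 own bases of which 6 lay in its variable exon, so the same limit applies to that exon. Variable exons of a cluster also resemble each other: the share of 50-base stretches found elsewhere in the cluster region had a median of 13.7% in the alpha, 4.58% in the beta and 0.735% in the gamma cluster, with highest values of 19.2% in the alpha and 18.1% in the gamma cluster. How reads that match several members were treated is not given in the sources used here, so the split of reads between close paralogs is uncertain. The shared portion was 0% for Pcdhgc3, Pcdhac1 and Pcdhac2.

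A single gene, Pcdhgc3, supplied 65.5%, 65.0% and 43.6% of clustered protocadherin reads in the wild type libraries and 64.8%, 57.5% and 67.0% in the Ythdf2-/- libraries. Pcdhgc3 is a gamma C-type linked to dendrite branching and Wnt signalling. It had 604, 634 and 525 CPM in the wild type libraries and 752, 691 and 859 CPM in the Ythdf2-/- libraries, which placed it at rank 137 of all genes by mean CPM. Per kilobase of own exon sequence its mean level was 264 CPM, rank 200 of 13042 tested genes with own exons. The next gamma member, Pcdhga7, reached 8.82 on this scale, 29.9 times less, and the highest non-clustered member, Pcdh10, reached 29.5. Pcdhgc3 took 80.3%, 80.1% and 68.7% of gamma cluster reads in the wild type libraries and 83.2%, 79.6% and 82.3% in the Ythdf2-/- libraries. The 95% Wilson intervals of these shares were at most 0.994 percentage points to either side, which covers counting error only.

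The other C-types were far lower and differed among themselves. Pcdhac2, an alpha isoform needed for the spacing of serotonergic axons, had a mean level of 5.12 CPM per kilobase, 4.60 times that of the next alpha member, Pcdha12. The libraries differed: its share of alpha cluster reads was 72.1%, 74.9% and 29.1% in wild type and 65.5%, 46.2% and 65.8% in Ythdf2-/- libraries. The remaining C-types, Pcdhac1, Pcdhgc4 and Pcdhgc5, had 0.582, 1.75 and 1.34 CPM per kilobase. The alternate (not C-type) members formed a broad low layer beneath Pcdhgc3. All 19 gamma A and B members and 21 of 22 beta members passed the filter on low counts, but 4 of 12 alternate alpha members did. Among those that did not, Pcdha4, Pcdha6 and Pcdha7 had little or no variable exon sequence of their own. Within the beta cluster, the 6 members nearest the gamma cluster, Pcdhb17 to Pcdhb22, had 3.46 to 7.68 CPM per kilobase. The first 11 beta members had a median of 1.91 and a range from 0.0117 to 6.08, and the last 11 a median of 3.52 and a range from 0.382 to 7.68, so the ranges overlapped. In the gamma cluster the medians ran the other way, with a median of 4.09 over the first 10 alternate members, from Pcdhga1 to Pcdhgb4, and 1.87 over the 9 that follow. Pcdhb1, the first beta gene, had 1 read in each of 2 libraries and 0 in the others, where a count of 0 allows up to 3 reads, or 0.222 to 0.257 CPM.

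**Figure D1:**
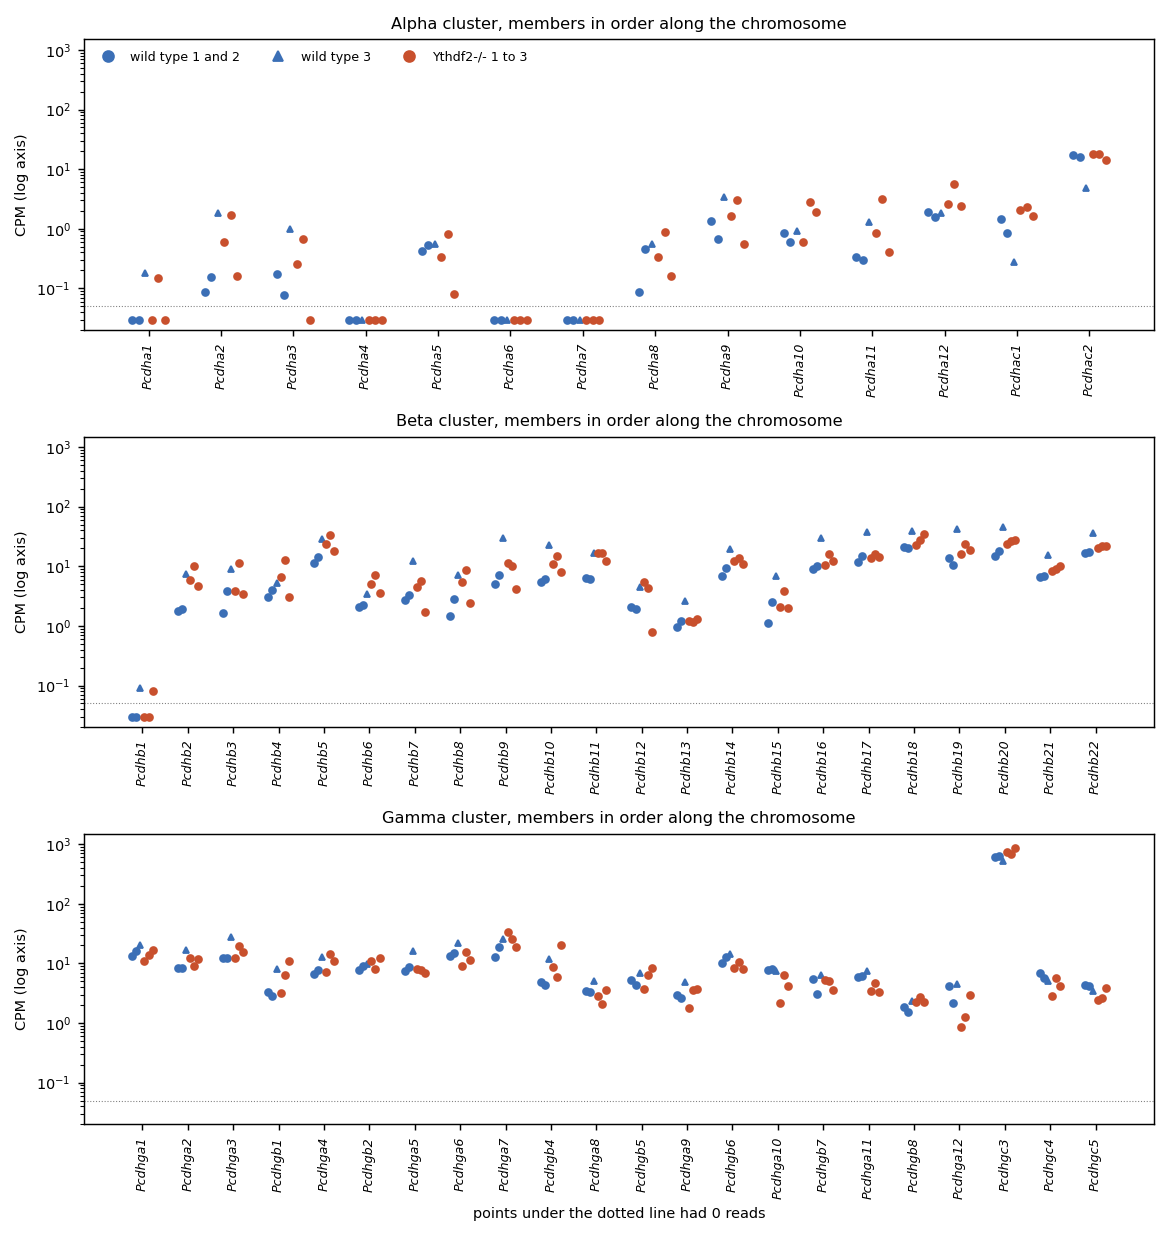
Normalised read counts (CPM, log axis) of the 58 clustered protocadherin genes in each of the 6 libraries, in order along the chromosome, with wild type in blue (triangle, replicate 3) and Ythdf2-/- in orange. Pcdhgc3, between 525 and 859 CPM, stands above every other member, and the triangle of wild type replicate 3 lies above wild type replicates 1 and 2 for all 21 tested beta genes but below them for all 5 C-types. Of all genes tested, 47.0% were above and 45.9% below wild type replicates 1 and 2 in that library.

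The comparison of the genotypes asks whether protocadherin transcripts differ in level without Ythdf2. Of the 70 genes, 59 passed edgeR's filterByExpr and were tested among 13112 genes (6 alpha, 21 beta, 22 gamma and 10 non-clustered). Pcdha1 to Pcdha8, Pcdhb1, Pcdh12 and Pcdh20 were not tested. By edgeR's quasi-likelihood test, 0 protocadherin genes passed an adjusted p of 0.05, as did 0% of all genes tested, and the smallest adjusted p of a member was 0.999. Ythdf2, the deleted gene, did not pass either, with a log2 fold change of -2.66 and an adjusted p of 0.0547 in edgeR. In this fit, 0 calls therefore do not show that levels were unchanged. In the other tests 0 members passed with DESeq2, where 5 had an unadjusted p under 0.05 (4.27% of all genes), and 0 with limma-voom, where 6 did (3.39% of all genes). At an unadjusted p under 0.05 in edgeR, 3 members were higher in Ythdf2-/- (Pcdha12, Pcdhb6 and Pcdh18), where 1.81% of all genes were, and 1 was lower (Pcdhga11), where 1.82% of all genes were. Among the 59, log2 fold changes were above 0 for 32 and below 0 for 27, against 6304 and 6808 over all genes tested. The median was 0.08 for the members and -0.01 over all genes tested. In 5 members the lowest Ythdf2-/- value exceeded the highest wild type value (Pcdha12, Pcdhac1, Pcdhb6, Pcdhgc3 and Pcdh18), a pattern of 5.26% of all genes, and in 2 members the order was the reverse (Pcdhga10 and Pcdhga11), a pattern of 4.92% of all genes. Pcdhga10 was named for this after its values were seen. Against wild type replicates 1 and 2 alone, the 3 Ythdf2-/- libraries lay above for 26 of the 59 members (18.9% of all genes) and below for 4 (20% of all genes).

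Leaving out 1 library moved these counts. Once wild type replicate 3 was removed, 49 of the 59 members had a higher and 10 a lower level in Ythdf2-/- (6791 and 6321 of 13112 genes). The median of their log2 fold changes was then 0.47 against 0.01 over all genes, whereas it was -0.09 without wild type replicate 1, -0.11 without wild type replicate 2 and -0.01 without Ythdf2-/- replicate 3. Without wild type replicate 3, 0 members passed an adjusted p of 0.05 in edgeR (smallest 0.151). Then 16 members had an unadjusted p under 0.05 and a higher level, where 8.03% of all genes did, and 1, again Pcdhga11, a lower level, where 8.58% did. The 16 comprised 9 beta members, 6 non-clustered members and Pcdhga7. The count of 4 members with an unadjusted p under 0.05 was 2 without wild type replicate 1 (2.82% of all genes), 0 without wild type replicate 2 (2.66%) and 2 without Ythdf2-/- replicate 1 (1.85%). When voom instead kept all libraries but weighted each by its quality, which gave wild type replicate 3 a weight of 0.0901 against 0.451 to 3.74 for the others, 6 members passed an adjusted p of 0.05 as higher in Ythdf2-/- (2.81% of all genes) and 2 as lower (2.47% of all genes), and 30 had an unadjusted p under 0.05 (29.8% of all genes). Those 8 members were Pcdh17, Pcdh10, Pcdhb2, Pcdhb5, Pcdhb6 and Pcdhb11 in the first direction and Pcdhga10 and Pcdhga11 in the second, of which Pcdhb2, Pcdhb5, Pcdhb11 and Pcdhga10 were named here after their values were seen.

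**Figure D2:**
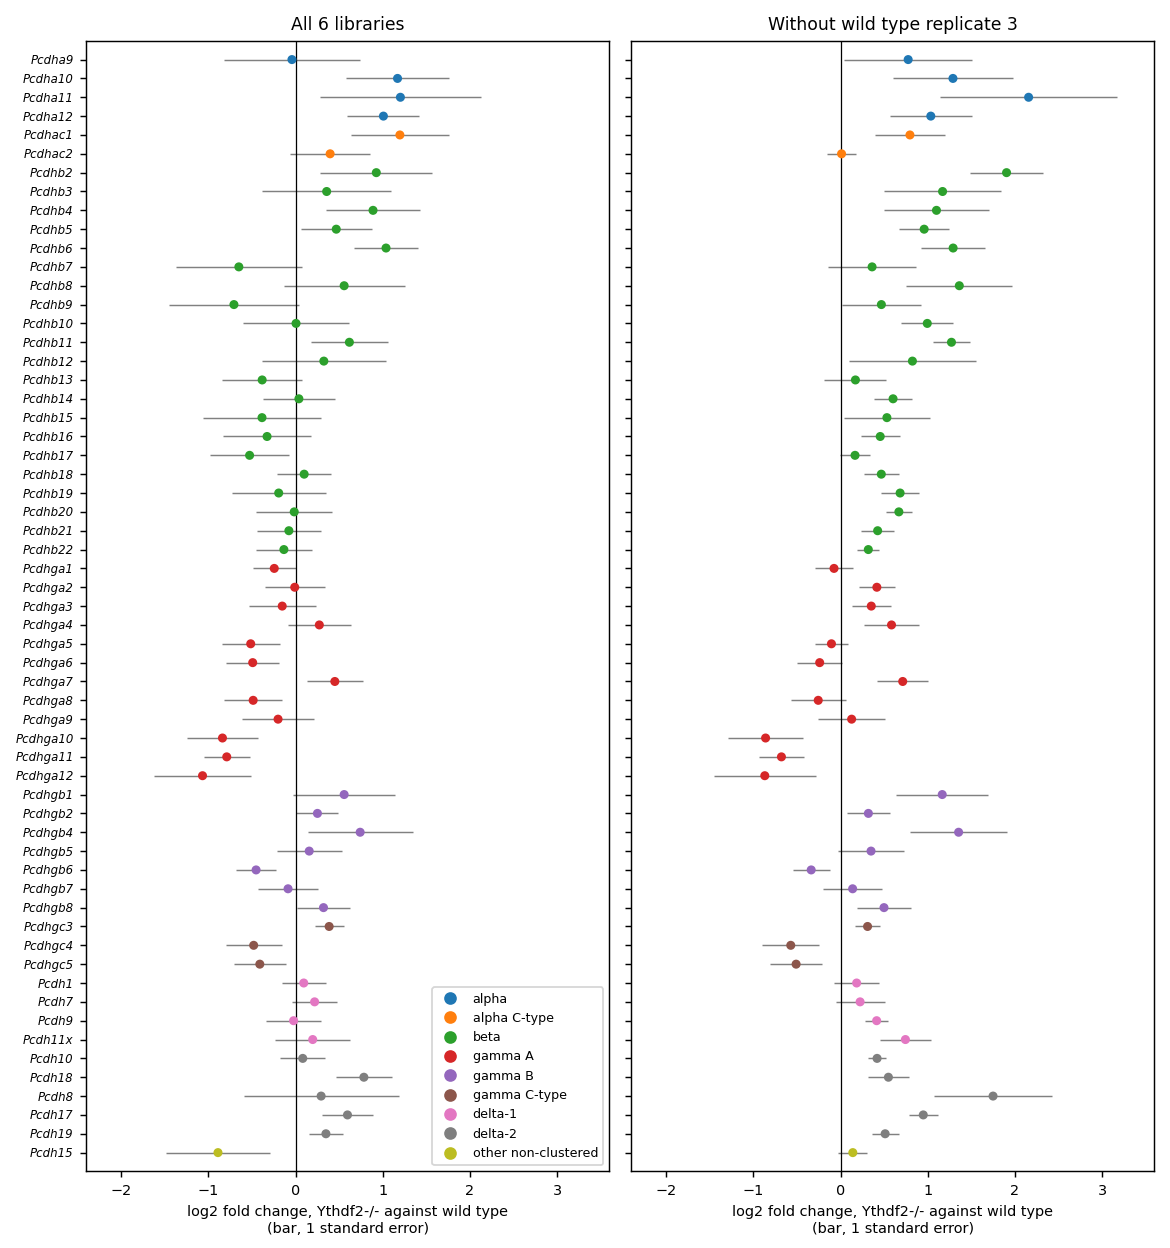
Log2 fold change (Ythdf2-/- against wild type, bar 1 standard error) of the 59 tested protocadherin genes with all 6 libraries (left) and without wild type replicate 3 (right), coloured by class. The median moves from 0.08 to 0.47, and all 21 beta genes lie above 0 in the right panel against 11 in the left. Of 13112 genes tested, 6791 were above 0 without wild type replicate 3 and 6304 with it.

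Among the C-types, Pcdhgc3 and Pcdhac1 had higher values in every Ythdf2-/- library than in any wild type library. For Pcdhgc3 a log2 fold change of 0.38 was fitted (standard error 0.167, adjusted p = 0.999 in edgeR). Without wild type replicate 3 it was 0.31 (unadjusted p = 0.0704 in edgeR), and leaving out any 1 library kept it between 0.30 and 0.46. Pcdhac1 had 1.45, 0.839 and 0.274 CPM in wild type and 2.05, 2.29 and 1.61 CPM in Ythdf2-/- libraries. Its groups were apart at a log2 fold change of 1.196 (standard error 0.560), which was 0.80 without wild type replicate 3, whose value rests on 3 reads. Pcdhac2 had 17.3, 15.7 and 4.84 CPM in wild type and 17.6, 18.1 and 14.1 CPM in Ythdf2-/- libraries. Its groups overlapped, and its log2 fold change of 0.40 (standard error 0.460) was 0.01 without wild type replicate 3 and 0.69 without wild type replicate 1. Pcdhgc4, an isoform required for the survival of interneurons, had 6.84, 5.80 and 5.12 CPM in wild type and 2.81, 5.62 and 4.26 CPM in Ythdf2-/- libraries, a log2 fold change of -0.48 (standard error 0.323). Pcdhgc5 had 4.36, 4.12 and 3.38 CPM in wild type and 2.47, 2.59 and 3.86 CPM in Ythdf2-/- libraries, a log2 fold change of -0.41 (standard error 0.297). Their groups overlapped gene by gene, and without wild type replicate 3 the log2 fold changes were -0.57 and -0.51. Pcdhgc4 had -0.25 without Ythdf2-/- replicate 1 and -0.73 without Ythdf2-/- replicate 2, and Pcdhgc5 had -0.64 without Ythdf2-/- replicate 3.

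The alpha cluster had the fewest assigned reads, 1849 of the 143455 protocadherin reads. Pcdha4, Pcdha6 and Pcdha7 had little or no variable exon sequence of their own, so fewer reads need not mean lower expression. Pcdha12, its highest alternate member, had 1.88, 1.60 and 1.83 CPM in wild type and 2.64, 5.62 and 2.41 CPM in Ythdf2-/- libraries, and its groups did not overlap. Its log2 fold change in edgeR was 1.01 (standard error 0.414, unadjusted p = 0.0487, adjusted p = 0.999), and 1.04 without wild type replicate 3 (unadjusted p = 0.0689) but 0.52 without Ythdf2-/- replicate 2. Pcdha9 had 1.37, 0.686 and 3.38 CPM in wild type and 1.62, 3.03 and 0.563 CPM in Ythdf2-/- libraries, with a log2 fold change of -0.04 that was 0.78 without wild type replicate 3. The highest value in 5 of the 6 tested alpha members came from Ythdf2-/- replicate 2, which was the highest library for 15.6% of all genes tested. Summed over the 12 alternate members, that library had 18.8 CPM against 7.24 and 5.71 CPM in the other Ythdf2-/- libraries. It also had the lowest astroglial marker sum, at 3027 CPM, and the part of this in the alpha levels was not tested.

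In the beta cluster the position of the genotypes turned on wild type replicate 3. The highest beta member by CPM, Pcdhb18, had 21.0, 19.9 and 38.4 CPM in wild type and 22.8, 27.3 and 34.8 CPM in Ythdf2-/- libraries. Pcdhb20 had 14.7, 17.9 and 46.1 CPM in wild type and 23.8, 26.2 and 27.9 CPM in Ythdf2-/- libraries. Pcdhb22 had 17.0, 17.2 and 36.1 CPM in wild type and 20.1, 21.8 and 22.2 CPM in Ythdf2-/- libraries. For each of these 3 genes the Ythdf2-/- values lay above wild type replicates 1 and 2 and below wild type replicate 3. Their log2 fold changes were 0.10, -0.02 and -0.13 with all libraries, and 0.47, 0.67 and 0.32 without it. All 21 tested beta members were higher in wild type replicate 3 than in wild type replicates 1 and 2, as were 47.0% of all genes tested, and 14 had their highest value there, as did 33.8% of all genes. Across the 21, fold changes were above 0 for 11 and below 0 for 10 with a median of 0.005 (log2). Without wild type replicate 3 they were above 0 for all 21, with a median of 0.67, where 6791 of 13112 genes were above 0.

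Pcdhb6 was the beta member whose genotypes did not overlap with all libraries included. It had 2.05, 2.21 and 3.38 CPM in wild type and 5.11, 7.03 and 3.54 CPM in Ythdf2-/- libraries, a log2 fold change of 1.04 (standard error 0.371, unadjusted p = 0.0297, adjusted p = 0.999 in edgeR) and 1.29 without wild type replicate 3. The margin was small, since the lowest Ythdf2-/- value exceeded the highest wild type value by the gap from 3.38 to 3.54 CPM. Among the beta members named after their values were seen, Pcdhb11 had 6.41, 6.02 and 17.0 CPM in wild type and 16.5, 16.5 and 12.1 CPM in Ythdf2-/- libraries. Pcdhb2 had 1.80, 1.91 and 7.31 CPM in wild type and 5.96, 10.2 and 4.66 CPM in Ythdf2-/- libraries. Pcdhb5 had 11.3, 14.3 and 28.5 CPM in wild type and 23.4, 33.2 and 18.1 CPM in Ythdf2-/- libraries. In all 3 genes wild type replicate 3 fell inside or above the Ythdf2-/- range. Their log2 fold changes of 0.62, 0.93 and 0.47 with all libraries were 1.27, 1.90 and 0.96 without it.

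The variable exons of gamma A and gamma B members alternate along the cluster. Of the 12 gamma A members 2 had a log2 fold change above 0 and 10 below, with a median of -0.37, whereas of the 7 gamma B members 5 were above and 2 below, with a median of 0.25. Without wild type replicate 3 these counts were 5 and 7 for gamma A (median -0.09) and 6 and 1 for gamma B (median 0.35), and the difference between the 2 families was not tested. Pcdhga7, the most abundant alternate gamma member, had 12.9, 18.6 and 25.3 CPM in wild type and 33.5, 25.7 and 18.5 CPM in Ythdf2-/- libraries, with overlapping groups. Its log2 fold change was 0.45 (standard error 0.322), and 0.71 without wild type replicate 3 (unadjusted p = 0.0485 in edgeR), but 0.24 without wild type replicate 1 and 0.23 without Ythdf2-/- replicate 1. Pcdhga3 had 12.3, 12.5 and 28.1 CPM in wild type and 12.3, 19.5 and 15.7 CPM in Ythdf2-/- libraries, and its log2 fold change of -0.15 was 0.35 without wild type replicate 3. Near the 3′ end of the alternate gamma array, Pcdhga11 and Pcdhga10 were lower in every Ythdf2-/- library than in any wild type library. Pcdhga11 had 5.99, 6.25 and 7.58 CPM in wild type and 3.41, 4.73 and 3.30 CPM in Ythdf2-/- libraries. Its log2 fold change in edgeR was -0.79 (standard error 0.264, unadjusted p = 0.0226, adjusted p = 0.999) and -0.68 without wild type replicate 3. Pcdhga10 had 7.61, 8.01 and 7.40 CPM in wild type and 2.13, 6.44 and 4.26 CPM in Ythdf2-/- libraries, and its log2 fold change was -0.84 with all libraries, or -0.86 without wild type replicate 3.

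Members were also summed by class. The summed C-type gamma level was 615, 644 and 533 CPM in wild type and 757, 699 and 867 CPM in Ythdf2-/- libraries. These groups did not overlap, and the values are almost wholly those of Pcdhgc3. Pcdhgc4 and Pcdhgc5 together ran the other way, with 11.2, 9.91 and 8.497 CPM in wild type and 5.28, 8.21 and 8.12 CPM in Ythdf2-/- libraries. These sums did not overlap, but the margin was small, from 8.21 to 8.497 CPM, and each gene alone overlapped. The alpha C-type sum overlapped, with 18.7, 16.6 and 5.12 CPM in wild type and 19.7, 20.4 and 15.7 CPM in Ythdf2-/- libraries. Summed over alpha, beta, gamma A and gamma B, the alternate members had 288, 316 and 664 CPM in wild type and 384, 482 and 399 CPM in Ythdf2-/- libraries. The alternate sum of wild type replicate 3 was 2.201 times the mean of wild type replicates 1 and 2, and in the beta cluster alone 2.73 times (422 against 146 and 164 CPM). By contrast, the C-type sums of this library were 0.847 times (gamma) and 0.290 times (alpha) the mean of the same wild type libraries. All 5 C-types were lower in wild type replicate 3 than in wild type replicates 1 and 2, as were 45.9% of all genes tested. In the same library the summed neuronal, oligodendrocyte lineage and astroglial markers were 1.63, 2.80 and 1.83 times, and the summed progenitor markers 0.557 times, the mean of wild type replicates 1 and 2. Most single progenitor markers, 7 of 10, were nevertheless highest in that library. The part of these cell types in the protocadherin levels was not tested. For the alternate sum the log2 ratio of Ythdf2-/- to wild type means was -0.003 with all libraries and 0.48 without wild type replicate 3. Sums got no test.

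**Figure D3:**
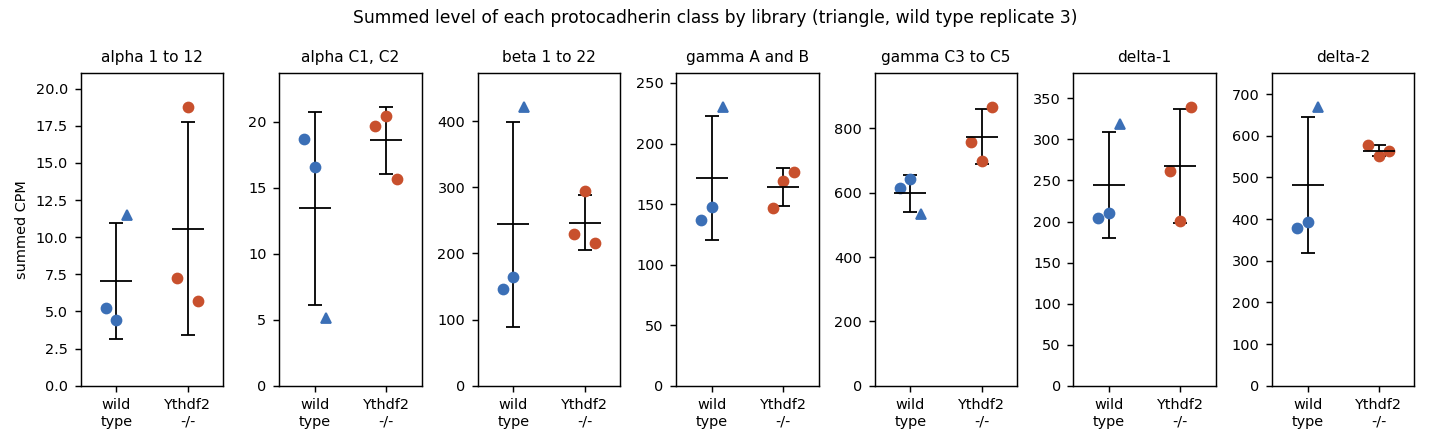
Summed normalised read counts (CPM) of each protocadherin class by library, with points for libraries (triangle, wild type replicate 3), a horizontal line for the mean and bars for 1 SD (n = 3). Wild type replicate 3 is the highest wild type point in the alternate alpha, beta, gamma A and B, delta-1 and delta-2 panels and the lowest in both C-type panels.

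The spread behind these values was wide. The median biological coefficient of variation of the 44 tested alternate members was 0.374, against 0.313 for the 5560 tested genes in the same range of mean CPM (1.05 to 27.4). By class the median was 0.552 for alternate alpha, 0.452 for beta, 0.331 for gamma A and 0.328 for gamma B. It was 0.414 for the alpha C-types and 0.278 for the gamma C-types, and the lowest of any member was 0.196. These values come from the fit with wild type replicate 3 included and were not computed without it. In that library 42 of the 44 alternate members were above wild type replicates 1 and 2, as were 47.0% of all genes tested.

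The most abundant non-clustered gene was a delta-2 member, and the least abundant of the 10 tested, Pcdh18 and Pcdh8, were delta-2 members too. Pcdh10, which promotes the growth of striatal axons and binds the actin-regulating WAVE complex, lies on chromosome 3 from 45378398 to 45434579. It had 261, 268 and 473 CPM in wild type and 367, 366 and 328 CPM in Ythdf2-/- libraries, and it took 41.8% ± 0.362 (SD, n = 3) of non-clustered reads in wild type and 40.9% ± 5.62 (SD, n = 3) in Ythdf2-/- libraries. Its Ythdf2-/- values lay between wild type replicate 3 and the other wild type libraries. The log2 fold change was 0.08 (standard error 0.261), and 0.42 without wild type replicate 3 (unadjusted p = 0.00745 in edgeR).

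Pcdh17, a delta-2 member that also recruits the WAVE complex, lies on chromosome 14 from 84443563 to 84537060. It had 68.6, 67.1 and 124 CPM in wild type and 141, 104 and 148 CPM in Ythdf2-/- libraries, so that 2 Ythdf2-/- libraries exceeded every wild type library and the third fell below wild type replicate 3. In edgeR its log2 fold change of 0.59 had a standard error of 0.288 (adjusted p = 0.999). Without wild type replicate 3 it was 0.95 (unadjusted p = 0.00115), and with quality weights in voom it was 1.01 (adjusted p = 0.0185), where all 3 Ythdf2-/- libraries were above 2 of 3 wild type libraries.

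Pcdh18, whose product binds the Reelin-pathway adaptor Dab1, lies on chromosome 3 from 49743296 to 49757316. It had 7.10, 6.63 and 3.75 CPM in wild type and 8.95, 8.73 and 12.5 CPM in Ythdf2-/- libraries. It was the non-clustered gene whose genotypes did not overlap, and unlike the other delta-2 members it was lowest in wild type replicate 3. In edgeR its log2 fold change of 0.78 had a standard error of 0.319 (unadjusted p = 0.0476, adjusted p = 0.999), and it was 0.55 without that library. Pcdh19, an X-linked gene whose mutation causes epilepsy, had 42.2, 50.8 and 63.2 CPM in wild type and 56.5, 67.1 and 75.2 CPM in Ythdf2-/- libraries. Pcdh8, an activity-regulated gene in neurons, had 0.770, 0.839 and 5.12 CPM in wild type and 2.98, 4.22 and 0.965 CPM in Ythdf2-/- libraries. Both overlapped between genotypes, with log2 fold changes of 0.35 (standard error 0.195) for Pcdh19 and 0.29 (standard error 0.889) for Pcdh8. Leaving out wild type replicate 3 gave 0.51 (unadjusted p = 0.0159 in edgeR) and 1.75 (unadjusted p = 0.0391), while Pcdh19 had 0.22 without wild type replicate 1. All 5 delta-2 members had fold changes above 0, with a median of 0.35 (log2) with all libraries and 0.55 without wild type replicate 3. Pcdh10 was below 0 without wild type replicate 1 or 2 (-0.07 and -0.05), and Pcdh8 without wild type replicate 1 or 2 or Ythdf2-/- replicate 2 (-0.11, -0.10 and -0.16).

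Delta-1 members, which carry a cytoplasmic motif that binds protein phosphatase 1, had overlapping genotypes throughout. Pcdh7 had 98.2, 98.5 and 99.6 CPM in wild type and 114, 75.9 and 155 CPM in Ythdf2-/- libraries. Its wild type values were nearly equal, wild type replicate 3 included, and its Ythdf2-/- values lay on both sides of them. Pcdh9 had 60.0, 58.4 and 122 CPM in wild type and 78.8, 68.6 and 89.2 CPM in Ythdf2-/- libraries. Pcdh11x, on the X chromosome, had 29.8, 34.6 and 76.9 CPM in wild type and 55.4, 35.4 and 71.1 CPM in Ythdf2-/- libraries. In both genes the Ythdf2-/- values lay between wild type replicate 3 and the other wild type libraries. Pcdh1 had 16.4, 18.5 and 20.8 CPM in wild type and 13.7, 20.9 and 24.8 CPM in Ythdf2-/- libraries, with overlapping groups. The delta-1 log2 fold changes ran from -0.02 to 0.22 with standard errors of 0.252 to 0.431, with a median of 0.14. Without wild type replicate 3 they were 0.22 for Pcdh7, 0.41 for Pcdh9, 0.74 for Pcdh11x and 0.18 for Pcdh1, with a median of 0.32, and the difference between delta-1 and delta-2 members was not tested.

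The remaining non-clustered genes were mostly near 0. Pcdh15, which forms the tip links of inner ear hair cells and is also expressed by oligodendrocyte precursors, had 33.9, 38.7 and 150.0 CPM in wild type and 45.9, 41.5 and 32.6 CPM in Ythdf2-/- libraries. Wild type replicate 3 alone was high, as it was for summed oligodendrocyte lineage markers. Of those 12 markers 8 were highest there, among them Pdgfra at 122 CPM against 9.97 to 72.9 CPM in the other libraries. Olig1 went the other way, lowest there at 546 CPM against 873.5 to 1249 CPM. The log2 fold change was -0.89 (standard error 0.594), and 0.14 without that library. Pcdh12, a protocadherin of endothelial cells, had at most 1 read in a library, and Pcdh20 had a mean of 0.334 CPM.

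**Figure D4:**
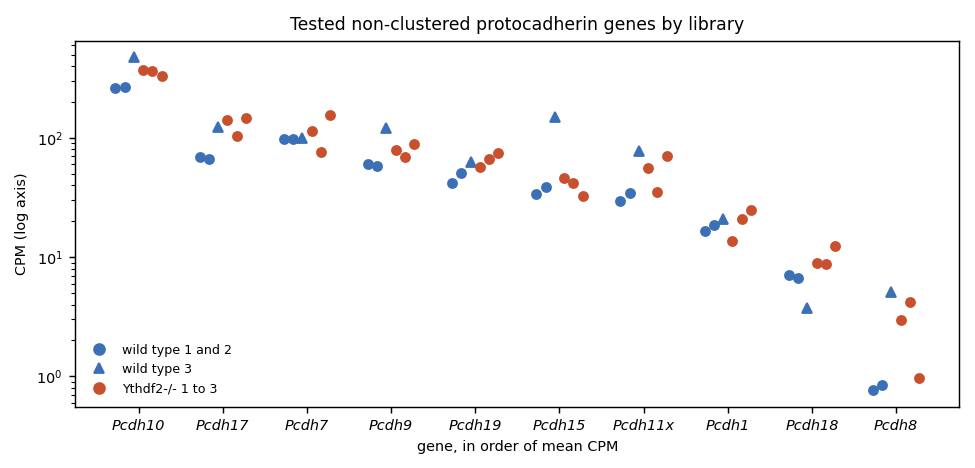
Normalised read counts (CPM, log axis) of the 10 tested non-clustered protocadherin genes in each library, in order of mean level, with wild type in blue (triangle, replicate 3) and Ythdf2-/- in orange. The triangle is above wild type replicates 1 and 2 for 9 genes and below them for Pcdh18, the gene whose 3 Ythdf2-/- libraries all lie above the wild type libraries. Of all genes tested, 47.0% were above and 45.9% below wild type replicates 1 and 2 in wild type replicate 3.

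Genes that act on or below protocadherins were read from lists. Clustered promoters are looped to their enhancers by CTCF and cohesin and silenced by DNA and histone methylation, and 23 genes of these activities were tested. By edgeR, 0 passed an adjusted p of 0.05 and 0 an unadjusted p under 0.05 (3.63% of all genes), with 8 higher and 15 lower in Ythdf2-/-. The median of their log2 fold changes was -0.04, and 0 passed an adjusted p of 0.05 with DESeq2. With wild type replicate 3 left out, 11 were higher and 12 lower with a median of -0.002, 0 passed an adjusted p of 0.05, and 6 had an unadjusted p under 0.05, of which 3 were higher (8.03% of all genes) and 3 lower (8.58% of all genes). The cohesin subunit Rad21 had 494, 488 and 249 CPM in wild type and 445, 479 and 484 CPM in Ythdf2-/- libraries, so wild type replicate 3 was the low library. Its log2 fold change was 0.19 with all libraries and -0.07 without that one. The co-repressor Trim28 had 334, 327 and 247 CPM in wild type and 254, 282 and 269 CPM in Ythdf2-/- libraries, with overlapping groups. Its log2 fold change of -0.17 was -0.30 without wild type replicate 3 (unadjusted p = 0.0232 in edgeR). The cohesin subunit Stag2 had 293, 278.2 and 295 CPM in wild type and 259, 278.1 and 260.0 CPM in Ythdf2-/- libraries, with groups that barely separated and a log2 fold change of -0.12 (-0.10 without wild type replicate 3).

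Of 29 genes that cleave protocadherins or carry their signals, among them focal adhesion kinases, the WAVE complex, Rac1 and gamma-secretase, 28 were tested. By edgeR, 0 passed an adjusted and 0 an unadjusted p of 0.05 (3.63% of all genes for the latter), 13 were higher and 15 lower at a median of -0.04 (log2), and 0 passed an adjusted p of 0.05 with DESeq2. With wild type replicate 3 left out, 16 were higher and 12 lower at a median of 0.08, 0 passed an adjusted p of 0.05, and 3, all higher, had an unadjusted p under 0.05, where 8.03% of all genes did in that direction. The most abundant were Ctnnb1 (beta-catenin), Marcks, an actin-binding protein whose regulation gamma protocadherins affect, and Rac1. Ctnnb1 had 1128, 1181 and 1198 CPM in wild type and 1116, 1114 and 1159 CPM in Ythdf2-/- libraries, and Rac1 had 554, 596 and 521 CPM in wild type and 507, 450.0 and 561 CPM in Ythdf2-/- libraries. Their log2 fold changes were -0.05 and -0.14 with all libraries and -0.03 and -0.18 without wild type replicate 3. Marcks had 683, 687 and 1157 CPM in wild type and 1034, 1337 and 877 CPM in Ythdf2-/- libraries, with overlapping groups. Its log2 fold change was 0.36 (standard error 0.289), and 0.66 without wild type replicate 3 (unadjusted p = 0.0166 in edgeR). Like most alternate protocadherins, Marcks was higher in wild type replicate 3 than in wild type replicates 1 and 2.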

How the data were processed

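RNA-seq input libraries of NSPCs, 3 wild type and 3 Ythdf2-/-, were compared. The study describes them as biological replicates, and p-values measure the spread between these libraries. The authors aligned the reads to mm10 with TopHat, per the file headers and the methods, and deposited raw counts, whole reads per gene under RefSeq symbols. The submitters' processing notes also list Bowtie2 2.2.9, RSEM 1.2.15 and featureCounts. The kit was strand-specific, but the strand setting of the counting and its handling of reads on several genes are not given in the sources used here. The authors also deposited a table per library of expected counts, TPM and FPKM values. The expected counts summed to 2.09% of the raw counts, so the TPM served only as an alternative for summed levels, on the log2(sum + 1) scale, and the FPKM values were not used.

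The quasi-likelihood test of edgeR 4.0.16 (R 4.3.3) was run on all 13112 genes that filterByExpr kept, after TMM scaling. Dispersions were fitted by glmQLFit (robust), genotype was the single factor, and p-values were adjusted by Benjamini-Hochberg over all these genes. DESeq2 1.42.0, limma-voom (limma 3.58.1) with and without quality weights, other size factors, other filters, a replicate block and leaving out each library were alternatives. Own exon bases, those of no other annotated gene, came from the RefSeq annotation of GRCm38, with 24416 genes matched. Its release may differ from the one the authors counted with. The tests were tried on simulated counts. The principal components used 2000 genes. With 3 libraries against 3, an exact permutation test cannot go below 0.1.

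Members and lists were chosen with earlier results of these data known. Values are given for every tested non-clustered gene, the C-types, the 3 most abundant members of each cluster, members with an unadjusted p under 0.05 in edgeR or an adjusted p under 0.05 in edgeR, DESeq2 or voom, Ythdf2, and the 3 most abundant genes of each list. Single marker genes were named after their values were seen. No sequence is printed.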

Additional observations from a re-analysis of the deposited data

How the results depend on the processing

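Over the alternatives 0 members passed an adjusted p of 0.05, except 8 with quality weights in voom. Members with an unadjusted p under 0.05 numbered 4, and 3 to 6 with other size factors, filters, DESeq2 or plain voom, but 30 with quality weights (29.8% of all genes), 1 (Pcdh17) with the replicate block (1.40% of all genes), and 0 to 17 when 1 library was left out, lowest without wild type replicate 2 and highest without wild type replicate 3. Deviations of same-numbered libraries from their group means correlated at -0.248, -0.244 and -0.394, and no library correlated best with its own number. The group means rest on few libraries, with the outlying wild type replicate 3 among them. These correlations therefore cannot show whether same-numbered samples were paired. Under that block the log2 fold changes of Pcdh9 and Pcdhb20 were 0.058 and 0.17, opposite in sign to those without it. The summed beta level had a log2 ratio of 0.02, and -0.25 to 0.67 when 1 library was left out. The summed gamma level, 0.29, was -0.14 as a mean of log2 CPM over members, a scale on which Pcdhgc3 counts as 1 member among 22, and 0.40 from the deposited TPM, which rest on 47.9 to 88.0 expected counts per library. The same TPM gave -0.29 for beta and 0.33 for the non-clustered sum. Leaving out 1 library moved the summed alpha ratio of 0.51 to between 0.24 (without Ythdf2-/- replicate 2) and 0.69, and the summed non-clustered ratio of 0.12 to between -0.03 (without wild type replicate 1) and 0.47 (without wild type replicate 3).

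Of the 59 tested members, 17 changed sign without wild type replicate 3, all to above 0. The share of all genes that changed sign was not computed. Of the 24 named members refitted under the alternatives, 12 changed sign in at least 1, and the cause was not tested. Pcdh8, Pcdha9 and Pcdhac1 were absent from the fit that required 10 reads in every library. With quality weights the log2 fold changes were 0.18 for Pcdh15, 0.42 for Pcdh9, -0.11 for Pcdh1, 0.59 for Pcdha9, 0.57 for Pcdhb20, 0.26 for Pcdhb22 and 0.12 for Pcdhga3. Plain voom gave 0.061 for Pcdh9 and 0.19 for Pcdhb20, and no filter gave 0.0019 and 0.013. Leaving out 1 library gave -1.24 to 0.14 for Pcdh15, -0.16 to 1.75 for Pcdh8, -0.21 to 0.41 for Pcdh9, -0.10 to 0.31 for Pcdh1, -0.066 to 0.42 for Pcdh10, -0.058 to 0.46 for Pcdh7, -0.052 to 0.74 for Pcdh11x, -0.70 to 0.78 for Pcdha9, -0.078 to 0.47 for Pcdhb18, -0.30 to 0.67 for Pcdhb20, -0.32 to 0.32 for Pcdhb22 and -0.35 to 0.35 for Pcdhga3. The other 12 named members kept their direction in every alternative fit that included them, but not their size. Leaving out 1 library gave 0.44 to 0.95 for Pcdh17, 0.55 to 0.95 for Pcdh18, 0.22 to 0.51 for Pcdh19, 0.011 to 0.69 for Pcdhac2, 0.80 to 1.79 for Pcdhac1, 0.52 to 1.22 for Pcdha12, 0.78 to 1.29 for Pcdhb6, 0.23 to 0.71 for Pcdhga7, -0.96 to -0.68 for Pcdhga11, 0.30 to 0.46 for Pcdhgc3, -0.73 to -0.25 for Pcdhgc4 and -0.64 to -0.28 for Pcdhgc5. Most alternate alpha members had too few reads for a test.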
